A study of Mus musculus with 4 samples.

Results

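The subunits of the muscle nicotinic acetylcholine receptor and the proteins that gather it at the synapse were followed in single cells sorted from dystrophic and healthy mouse muscle. The 10 genes were a fixed list, taken by name from the 27998 genes of the count tables. They were the receptor subunits Chrna1, Chrnb1, Chrnd, Chrng and Chrne, the muscle kinase Musk with its partners Rapsn and Dok7, the nerve signal Agrn and its receptor Lrp4. Their unique molecular identifiers (UMIs, each standing for 1 captured transcript) were counted in myogenic cells and in glial and Schwann cells, which were set by other marker genes.

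The study sorted satellite cells, the stem cells of skeletal muscle, from the lower hindlimb of 4 mouse strains and sequenced their transcripts with a droplet method that reads the 3′ end. Each strain gave 1 library, made from 2 mice whose cells were pooled. Each dystrophin mutant was set beside a healthy strain of its own background, and of the mutants D2-mdx is the more severely affected. The sort kept cells positive for α7-integrin and VCAM1 and removed cells bearing Cd11b, Sca1, Cd45 or Cd31.

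The B10 library came from C57/Bl10ScsSn mice of 15 weeks and the mdx library from C57BL/10ScSn-Dmdmdx mice of 11 weeks. The DBA library came from DBA/2 mice of 13 weeks and the D2-mdx library from D2.B10-Dmdmdx mice of 14 weeks. Both dystrophic strains carry the mdx mutation of Dmd, the dystrophin gene, in every cell. Ages differed between the libraries, so strain, age and library cannot be told apart. Because pooled mice gave 1 library per strain, there is no replicate of any group and no test between strains. Every interval below is an exact 95% interval that covers counting error only, and says nothing of the spread between animals.

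At a working synapse, motor nerves release agrin, which binds LRP4 on the fibre and switches on the kinase MuSK. DOK7 binds and activates MuSK from inside the cell, and rapsyn then holds receptors together under the nerve ending. The adult receptor is a pentamer of α1, β1, δ and ε subunits, whereas embryonic, denervated and regenerating muscle uses γ in place of ε. The subunit genes are known targets of myogenic transcription factors such as myogenin (Myog), which bind E-boxes, DNA words of the form CANNTG.

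The start of 7 of the 10 genes was found in a RefSeq promoter table (build GRCm38.p6), which held no entry for Chrnd, Rapsn or Lrp4. The promoters of Chrna1, of the embryonic subunit Chrng and of the adult subunit Chrne are shown, as those of the α subunit and of the 2 subunits that replace each other between embryo and adult. Each run covers the 130 bases from 160 to 31 bases upstream of the start, 5′ to 3′ on the gene's own strand. Capitals mark CANNTG words and, for Chrne, the Ets-type word CCGGAA, which neuregulin-responsive synaptic promoters are known for.
Chrna1 (chr2:73580369-73580498, minus strand): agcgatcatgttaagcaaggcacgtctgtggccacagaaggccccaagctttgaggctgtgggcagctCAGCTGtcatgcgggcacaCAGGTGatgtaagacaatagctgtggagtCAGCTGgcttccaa
Chrng (chr1:87205651-87205780, plus strand): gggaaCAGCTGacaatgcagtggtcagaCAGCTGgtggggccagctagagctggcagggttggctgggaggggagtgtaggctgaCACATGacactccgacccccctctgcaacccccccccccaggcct
Chrne (chr11:70619225-70619354, minus strand): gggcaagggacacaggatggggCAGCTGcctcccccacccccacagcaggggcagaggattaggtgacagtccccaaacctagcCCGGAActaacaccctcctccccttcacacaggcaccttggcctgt

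Chrna1 held CANNTG words 92, 73 and 44 bases upstream of its start, and Chrng held them 155, 132 and 75 bases upstream. Chrne held 1 such word 138 bases upstream, with CCGGAA 76 bases upstream. Of the promoters not shown, those of Chrnb1 and Musk also held 3 CANNTG words, the 2 Dok7 starts held 1 and 0 and the 2 Agrn starts 0 and 1. The word CANNTG reads alike on both strands, and CCGGAA was searched on both. Such words were common, since 66.2% of 32851 promoter windows of 250 bases held at least 1 CANNTG and 12.2% held 3 or more. The word CAGCTG, present in the 3 promoters shown, occurred in 13% of windows, in 2 or more copies in 1.26%, and CCGGAA in 12%. A match is a description of letters and not of a bound factor. The RefSeq start used for Chrng lies inside the longer GENCODE gene, which spans chr1:87204657-87212694.

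The tables held 9931 B10, 7173 mdx, 3539 DBA and 6782 D2-mdx cell barcodes. After filtering, 4581 B10, 6313 mdx, 3279 DBA and 5756 D2-mdx cells remained, with median depths of 8466, 7021, 10434 and 6666 UMIs. Between 5 and 16 cell barcodes were shared by any pair of libraries. Clusters named from fixed marker genes gave 4418, 4822, 2699 and 4189 myogenic cells in the same order. These comprised MuSC-like cells (muscle stem cells), cycling progenitor-like cells, differentiating myocyte-like cells, DMD-enriched-like cells (marked by Postn, Col1a1 and Cdkn1c) and immunomyoblast-like cells (marked by interferon-response genes). Glial-like cells numbered 23, 357, 31 and 231, and Schwann-like cells 14, 79, 11 and 46. The 10 genes took no part in the clustering. Levels are given as CPM, the UMIs of a gene in every 1000000 UMIs of the cells summed. Where 4 values stand without names, they follow the order B10, mdx, DBA, D2-mdx. Because only the 3′ end was read, levels of different genes are not compared. Dmd itself stood at 324 CPM in B10 myogenic cells and 120 in mdx, and at 287 in DBA and 94.4 in D2-mdx. The libraries labelled as Dmd mutants thus held less Dmd RNA than the healthy library of their background.

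Chrna1 encodes the α subunit, which carries the acetylcholine binding sites. Over all myogenic cells it stood at 109 CPM in B10 against 157 in mdx, and 84.4 in DBA against 185 in D2-mdx. Both dystrophic libraries lay above both healthy ones, and the D2-mdx library was highest. The log2 ratio was 0.53 (interval 0.48 to 0.59) for mdx over B10, while on the DBA background D2-mdx gave 1.13 (1.06 to 1.20). After each cell was thinned to 3000 UMIs, 24.0% of B10, 26.1% of mdx, 19.9% of DBA and 32.2% of D2-mdx myogenic cells held a Chrna1 UMI. Cells under 3000 UMIs were left out of thinned shares, which in B10 left 4379 of 4418 myogenic, 21 of 23 glial-like and 12 of 14 endothelial-like cells and in these classes removed none elsewhere. Without thinning the Chrna1 shares were 47.4%, 45.8%, 48.0% and 54.0%. Endothelial-like cells, which should lack the subunit, held it in 0%, 0%, 0% and 1.12% of thinned cells, at median depths of 6430.5, 7490, 11294 and 7687 UMIs against 8424, 6847.5, 10294 and 6475 in myogenic cells. White blood-like cells held it in 4.59% of mdx, 8.33% of DBA and 10.2% of D2-mdx thinned cells, and these cells also held Pax7, the stem cell factor, at 85.3, 351 and 80.7 CPM. The myogenic shares lay above both classes in each of these libraries.

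Chrnb1 encodes the β subunit. It stood at 121 CPM in B10 and 88.6 in mdx, with 97.5 in DBA and 86.8 in D2-mdx myogenic cells. The dystrophic libraries were the lower of each pair, by a log2 ratio of -0.45 (-0.51 to -0.39) in mdx and -0.17 (-0.24 to -0.09) in D2-mdx, both short of the 2-fold change used here to count a gene.

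Chrnd and Chrng, which encode the δ and the embryonic γ subunit, were near the detection limit in healthy muscle. Chrnd had 17 UMIs in B10 against 193 in mdx, and 8 in DBA against 201 in D2-mdx, or 0.426, 4.78, 0.266 and 5.75 CPM. Chrng had 23, 360, 18 and 290 UMIs, or 0.577, 8.91, 0.598 and 8.30 CPM. For both genes the healthy and dystrophic libraries were widely apart, and their intervals did not overlap. The log2 ratios of mdx over B10 were 3.49 (2.77 to 4.30) for Chrnd and 3.95 (3.34 to 4.63) for Chrng. Those of D2-mdx over DBA were 4.44 (3.43 to 5.67) for Chrnd and 3.80 (3.11 to 4.57) for Chrng.

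Chrne, the adult ε subunit, was almost silent. Its counts were 3 UMIs in B10 and 9 in mdx, with 3 in DBA and 5 in D2-mdx myogenic cells, so no ratio is given. Its locus (chr11:70614883-70619216, minus strand) overlaps a gene on the other strand. No cluster was named as mature fibre, the cell that bears the synapse, in this sort of single cells.

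Musk, the receptor kinase that organises the postsynaptic membrane, stood at 31.9 CPM in B10 against 26.4 in mdx, and 37.7 in DBA against 23.4 in D2-mdx. The log2 ratios were -0.28 (-0.39 to -0.16) and -0.69 (-0.82 to -0.56), so the dystrophic libraries were lower but by less than 2-fold. Rapsn, the scaffold that clusters receptors, stood at 116, 117, 125 and 121 CPM, with log2 ratios of 0.01 and -0.05. The 4 libraries were thus nearly level for Rapsn.

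Dok7, the cytoplasmic activator of MuSK, differed from its partners. It had 25 UMIs in B10 and 288 in mdx, with 28 in DBA and 300 in D2-mdx, or 0.627, 7.13, 0.93 and 8.59 CPM. Both dystrophic libraries were far above the healthy ones, by log2 ratios of 3.51 (2.92 to 4.16) and 3.21 (2.65 to 3.82).

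Agrn stood at 8.30 CPM in B10 against 8.14 in mdx, and 8.07 in DBA against 8.61 in D2-mdx myogenic cells, and the 4 intervals overlapped. Lrp4 stood at 3.23, 2.72, 2.29 and 1.46 CPM. Its D2-mdx level was lowest, at a log2 ratio of -0.65 (-1.20 to -0.11) to DBA and -0.90 (-1.41 to -0.41) to mdx.

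**Figure D1:**
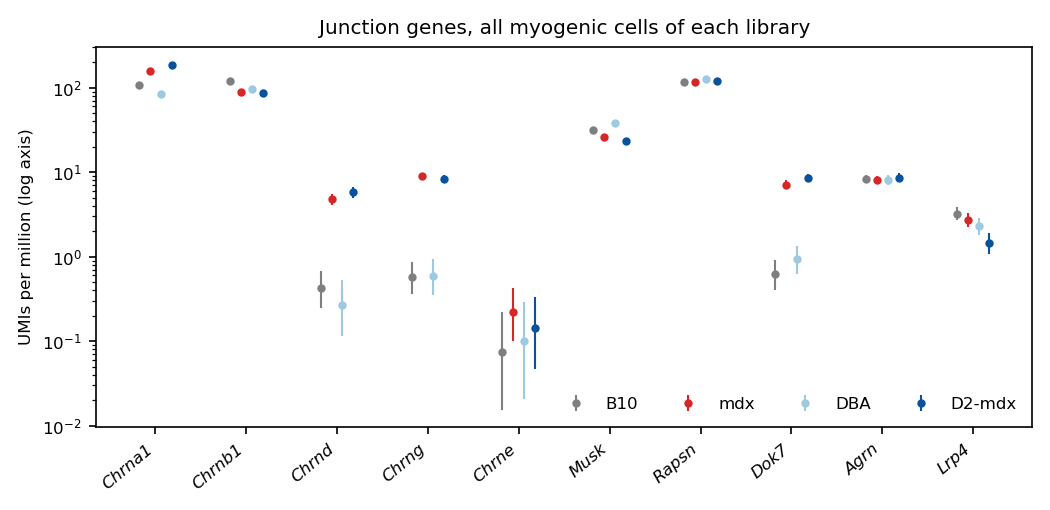
Levels of the 10 genes in myogenic cells of the 4 libraries, as CPM on a log axis, with exact 95% counting intervals as bars. Chrnd, Chrng and Dok7 lay between 4.78 and 8.91 CPM in the mdx and D2-mdx libraries and at or under 0.93 CPM in B10 and DBA, while Rapsn and Agrn were nearly level.

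A gene was counted as higher or lower at a 2-fold change with at least 20 UMIs over the 2 sums compared, a minimum that 9 of the 10 genes passed and Chrne missed. In mdx over B10, 3 of the 9 were higher (Chrnd, Chrng and Dok7) and 0 lower, where 10.2% of 14138 genes were higher and 9.60% lower. In D2-mdx over DBA, 4 of the 9 were higher (Chrna1 with the same 3) and 0 lower, where 11.6% of genes were higher and 9.96% lower. The median log2 ratio of the 9 was 0.01 and 0.09, beside -0.06 and -0.09 over all genes, so the list's median lay near that of all genes. Between the dystrophic libraries (D2-mdx over mdx), 0 of 9 were counted in either direction, where 6.16% of genes were higher and 4.24% lower. Between the healthy libraries (DBA over B10) the count was also 0 of 9, beside 5.16% and 5.24%.

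The sums over myogenic cells mixed states whose shares differed between libraries. Differentiating myocyte-like cells were 0.815% of B10, 4.67% of mdx, 1.93% of DBA and 4.87% of D2-mdx myogenic cells, shares that the sort can set. MuSC-like cells held 91.0% and 85.0% of the Chrna1 UMIs in B10 and DBA, but 29.6% and 36.4% in mdx and D2-mdx. Of the Chrng UMIs in mdx, 46.7% lay in DMD-enriched-like cells, 29.4% in differentiating, 15.0% in cycling and 8.06% in MuSC-like cells. In D2-mdx the order was different, with 38.6% in cycling, 29.0% in differentiating, 23.4% in DMD-enriched-like and 8.97% in MuSC-like cells. With differentiating cells left out of the sums, a choice made after seeing the data, the log2 ratios of mdx over B10 were 3.24 for Chrnd, 3.61 for Chrng and 2.13 for Dok7, and those of D2-mdx over DBA were 5.14, 3.45 and 3.46. The DBA sum held only 4 Chrnd UMIs, all in MuSC-like cells, so the 5.14 does not place this ratio above that of all myogenic cells. Chrna1 then stood at 0.33 and 0.99, just under 2-fold in D2-mdx. Of the Dok7 UMIs, 81.2% in mdx and 63.3% in D2-mdx lay in differentiating cells. In DBA these cells held 19 of 28 Dok7 UMIs, and in B10 they and MuSC-like cells held 12 of 25 each.

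To compare one state across strains, MuSC-like cells were summed alone. In these cells Chrna1 stood at 105 CPM in B10 and 92.9 in mdx, with 77.6 in DBA and 128 in D2-mdx. The dystrophic library was now the lower one on the B10 background, at a log2 ratio of -0.18 (-0.26 to -0.10), and the higher one on the DBA background, at 0.72 (0.64 to 0.81). The cells fell into several subclusters, and in the 3 with the most cells the mdx and B10 levels were 58.5 and 77.6, 102 and 102, and 137 and 141 CPM. In the same subclusters D2-mdx and DBA stood at 93.8 and 65.0, 151 and 77.7, and 171 and 98.1 CPM. D2-mdx was the higher of its pair in each, and mdx was lower in the first and near B10 in the other 2. When libraries were clustered without integration, 113 D2-mdx cells were named MuSC-like, and the ratio of D2-mdx over DBA was -0.08 (-0.51 to 0.33).

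The other subunits in MuSC-like cells rested on few UMIs. Chrnd had 14 UMIs in B10 against 26 in mdx, and 4 in DBA against 28 in D2-mdx, and its log2 ratios were 1.78 (0.79 to 2.83) and 3.41 (1.89 to 5.38). Chrng had 20, 29, 13 and 26 UMIs, with log2 ratios of 1.42 (0.55 to 2.32) and 1.60 (0.59 to 2.68). Dok7 had 12, 15, 8 and 27 UMIs, with log2 ratios of 1.21 (0.02 to 2.44) and 2.35 (1.18 to 3.70). These 3 genes again made up the members counted as higher in each comparison, 3 of 9, where on the B10 background 5.96% of genes were higher and 7.74% lower, and on the DBA background 7.39% and 7.48%. Myog, the marker of differentiating cells, was also higher in these dystrophic MuSC-like cells, at 0.455, 6.24, 0.396 and 11.0 CPM, and the summed differentiating marker list stood at 9.63, 17.5, 3.2 and 25.9 CPM, with Myh3 at 0 in DBA. The part of such cells in the ratios was not tested. The ratios were smaller than over all myogenic cells, and the lower bound for Dok7 in mdx was close to no change. Without integration, or with a minimum of 100 UMIs, 0 members were counted as higher in MuSC-like cells on either background.

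Musk stood at 31.5, 32.7, 37.4 and 31.3 CPM in MuSC-like cells of B10, mdx, DBA and D2-mdx, Rapsn at 115, 120, 126 and 135, and Chrnb1 at 123, 103, 99.6 and 103. None of these reached a 2-fold change, and the lower Musk of the dystrophic sums was not seen for mdx in this state. Lrp4 stood at 3.26, 2.43, 2.23 and 1.14 CPM. Its D2-mdx level was the lowest, and D2-mdx over mdx gave a log2 ratio of -1.08, the 1 of 9 members counted as lower there, where 4.91% of genes were higher and 4.23% lower.

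**Figure D2:**
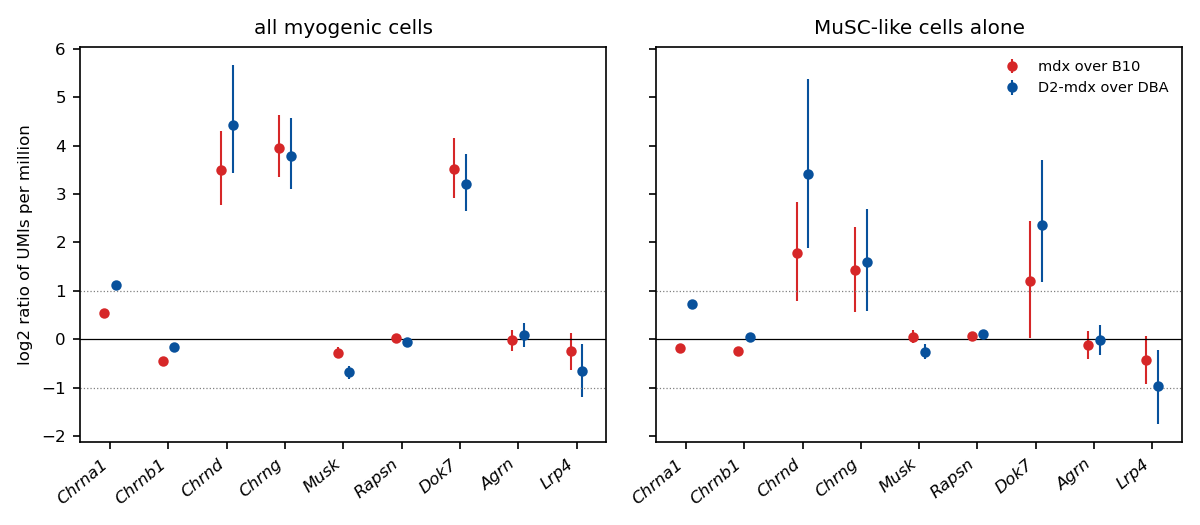
Log2 ratio of each dystrophic library to the healthy library of its background, for all myogenic cells and for MuSC-like cells, with exact 95% counting intervals. Chrnd, Chrng and Dok7 lay above 1 in both panels and both backgrounds, while Chrna1 in MuSC-like cells lay at -0.18 for mdx over B10 and 0.72 for D2-mdx over DBA.

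Within the dystrophic libraries, differentiating myocyte-like cells were set beside MuSC-like cells of the same library. These cells, marked by Myog, the fusion gene Tmem8c and embryonic myosin Myh3, numbered 36 in B10 and 225 in mdx, with 52 in DBA and 204 in D2-mdx. Chrna1 stood at 294 CPM in B10 against 439 in mdx, and 232 in DBA against 527 in D2-mdx differentiating cells. Its level was above that of MuSC-like cells in every library, with log2 ratios of 1.48 (B10), 2.24 (mdx), 1.58 (DBA) and 2.04 (D2-mdx).

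Chrnd reached 18.9 CPM in mdx and 18.2 in D2-mdx differentiating cells, on 59 and 44 UMIs, against 3.77 and 4.94 CPM on 2 and 4 UMIs in B10 and DBA. Chrng reached 33.9 and 34.8 CPM in mdx and D2-mdx, on 106 and 84 UMIs, with 1 UMI in each healthy library. Dok7 stood at 22.6, 74.8, 23.5 and 78.6 CPM in B10, mdx, DBA and D2-mdx, on 12, 234, 19 and 190 UMIs. Dok7 RNA was therefore also present in differentiating cells of healthy muscle, though on few UMIs. Chrng, with 1 UMI in each healthy library, was at the floor there.

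Over MuSC-like cells of mdx, the log2 ratios were 3.87 (3.18 to 4.60) for Chrnd, 4.56 (3.96 to 5.21) for Chrng and 6.65 (5.90 to 7.51) for Dok7. In D2-mdx they were 3.58 for Chrnd, 4.62 for Chrng and 5.74 (5.15 to 6.38) for Dok7. Of the 9 genes that passed the minimum, Dok7 differed most between these states in both dystrophic libraries. With Chrna1, 4 of 9 members were higher in each library, where 9.05% of genes were higher and 19.2% lower in mdx, and 7.05% higher and 17.5% lower in D2-mdx. The medians of the 9 were 0.07 and 0.12, beside -0.14 and -0.13 over all genes.

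The partners of Dok7 did not share its pattern. Musk stood at 16.9 CPM in mdx and 22.8 in D2-mdx differentiating cells, with log2 ratios to MuSC-like cells of -0.95 (-1.38 to -0.54) and -0.46. Rapsn stood at 95.3 and 124 CPM (-0.34 and -0.12), and Chrnb1 at 108 and 104 CPM (0.07 and 0.02). The α, δ and γ subunits and Dok7 were thus higher in differentiating than in MuSC-like cells, whereas β, Musk and rapsyn were of similar level or lower.

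**Figure D3:**
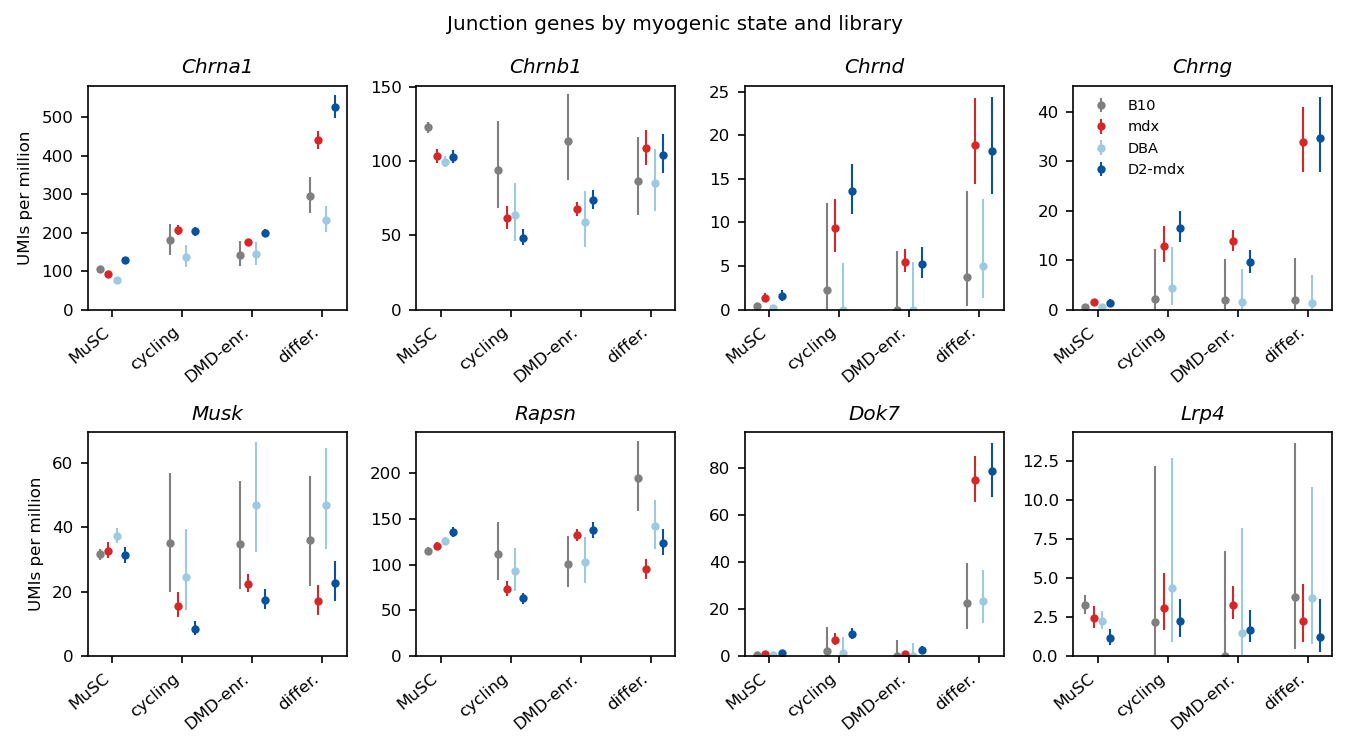
Levels of 8 of the genes in 4 myogenic states of each library, as CPM with exact 95% counting intervals. Dok7 peaked in differentiating cells (74.8 CPM in mdx, 78.6 in D2-mdx), Chrng in cycling and DMD-enriched-like cells of the dystrophic libraries also lay above MuSC-like cells, and Musk was lowest in D2-mdx cycling cells (8.42 CPM).

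The differentiating class was not of like composition in healthy and dystrophic libraries, which limits comparisons across strains. Myog stood at 651 CPM in B10 and 3648 in mdx, with 637 in DBA and 2951 in D2-mdx differentiating cells, and Pax7 at 408, 73.2, 324 and 91.9. The healthy cells in this class thus held more stem cell RNA and less myogenin RNA, and the part of this in the ratios below was not tested. In mdx over B10, 3 of 8 members that passed the minimum were higher, namely Chrnd, Chrng and Dok7, where 9.13% of genes were higher. The lower 2 were Musk at -1.08 (-1.86 to -0.24) and Rapsn at -1.03 (-1.36 to -0.69), where 11.2% of genes were lower. In D2-mdx over DBA, 4 of 8 were higher, with Chrna1 added at 1.18, where 7.71% of genes were higher. Musk at -1.04 (-1.67 to -0.41) and Agrn at -1.58 (-2.86 to -0.29) were lower, where 9.53% of genes were lower.

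A graded view came from Myog itself, used to order cells that had been thinned to 3000 UMIs. In mdx, Chrna1 stood at 107 CPM in 4530 myogenic cells with 0 Myog UMIs, 161 in 116 cells with 1 to 2, 451 in 71 cells with 3 to 9 and 540 in 105 cells with 10 or more. Dok7 stood at 1.25, 23.0, 65.7 and 82.5 CPM over the same mdx cells and at 1.39, 11.9, 48.8 and 93.9 in D2-mdx. Dok7 was higher at each step in both libraries, on 17, 8, 14 and 26 UMIs in mdx and 16, 7, 12 and 20 in D2-mdx. Its intervals overlapped over the last 2 steps in each library, and over the 2 middle steps in mdx. Chrna1 in D2-mdx stood at 134, 231, 638 and 601 CPM, level over the last 2 steps.

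Chrng stood at 4.78, 5.75, 51.6 and 34.9 CPM in mdx, on 65, 2, 11 and 11 UMIs. In D2-mdx it stood at 2.52, 8.50, 73.2 and 61.0 CPM, on 29, 5, 18 and 13 UMIs. The intervals of the last 2 steps overlapped in each library. Cells with 0 Myog UMIs in mdx held 65 of the thinned Chrng UMIs, or 4.78 CPM, where such cells of B10 held 8, or 0.611 CPM. A difference in Chrng between mdx and B10 was therefore present among cells with no Myog UMI at this depth. Chrnd (2.21 against 0.229 CPM, on 30 and 3 UMIs) and Dok7 (1.25 against 0.305, on 17 and 4) lay in the same direction. The cells with no Myog UMI pooled states, and the part of state composition in these differences was not tested. DMD-enriched-like cells, with Chrng at 13.8 CPM in mdx, were 1.13% of all B10 and 19.5% of all mdx myogenic cells. Musk stood at 30.2, 43.1, 18.8 and 19.1 CPM in mdx and at 28.2, 18.7, 24.4 and 9.39 in D2-mdx, where its last step held 2 UMIs. Healthy libraries had 8, 3 and 2 cells (B10) and 10, 9 and 2 cells (DBA) in the 3 steps with Myog UMIs, too few for such an ordering.

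**Figure D4:**
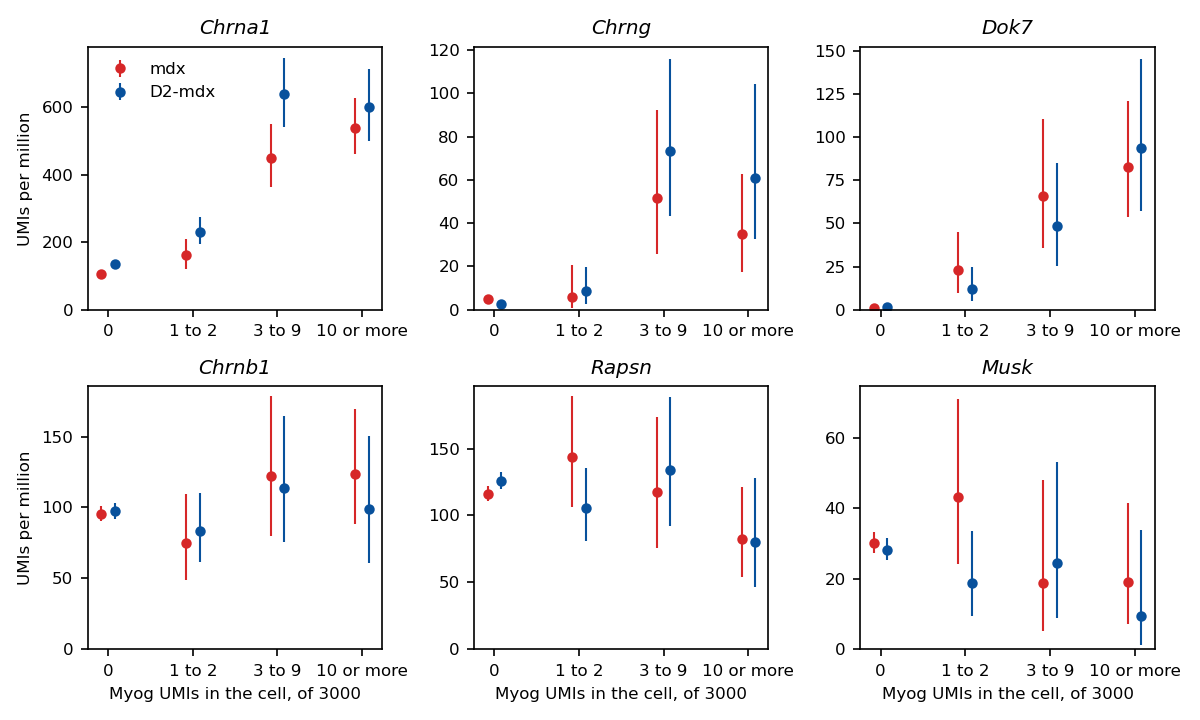
Levels of Chrna1, Chrng, Dok7, Chrnb1, Rapsn and Musk in thinned myogenic cells of mdx and D2-mdx, ordered by Myog UMIs per cell, as CPM with exact 95% counting intervals. Dok7 was 1.25 CPM at 0 Myog UMIs and 82.5 at 10 or more in mdx. Rapsn in mdx stood at 116, 144, 117 and 82.5 over the steps, and its last interval (53.9 to 121) included 116.

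Cells that hold RNA of a whole receptor were then sought. After thinning, 2 of 225 mdx differentiating cells (0.889%, 0.108 to 3.17) held Chrna1, Chrnb1, Chrnd and Chrng together, and 0 of 204 did in D2-mdx, 0 of 36 in B10 and 0 of 52 in DBA. Without thinning, 13 mdx cells (5.78%) and 11 D2-mdx cells (5.39%) did, and 0 in each healthy library. With Chrne in place of Chrng the count was 0 in all 4 libraries at either depth. It could only be 0, since differentiating cells held 0 Chrne UMIs in every library. At 3000 UMIs per cell the joint share was therefore at the limit of detection, and 0 does not mean that no cell expresses all 4 subunits.

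The single shares show which gene limited it. In thinned differentiating cells Chrna1 was found in 41.7% of B10, 73.3% of mdx, 38.5% of DBA and 75.0% of D2-mdx cells (80.6%, 96.0%, 76.9% and 97.1% unthinned). Chrnd was found in 0%, 8.0%, 1.92% and 4.90% (5.56%, 18.7%, 5.77% and 17.6% unthinned) and Chrng in 0%, 6.67%, 0% and 7.35% (2.78%, 23.1%, 1.92% and 20.1%). Endothelial-like cells held Chrng in 0% of thinned cells in B10, mdx and DBA and in 2.25% (2 of 89 cells) in D2-mdx. Dok7 was found in 5.56%, 16%, 3.85% and 15.2% of thinned differentiating cells (13.9%, 52.9%, 17.3% and 48.0% unthinned) and in 0% of endothelial-like cells of any library. The differentiating cells were deep, at medians of 14320, 13173, 15161 and 10572 UMIs, which is why thinned and unthinned shares parted.

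Cycling progenitor-like cells, marked by Mki67 and Top2a, numbered 26 in B10 against 327 in mdx, and 40 in DBA against 435 in D2-mdx. The class joined a subcluster with 7 of its markers detected and another with 3. The latter gave 23 of the B10, 201 of the mdx, 29 of the DBA and 169 of the D2-mdx cells. Myog stood at 19.7, 250, 5.78 and 230 CPM in the class and Pax7 at 398, 152, 353 and 89.2. The part of this unlike composition in the ratios below was not tested. Chrnd stood at 2.19, 9.32, 0 and 13.6 CPM there, Chrng at 2.19, 12.9, 4.34 and 16.5, and Dok7 at 2.19, 6.93, 1.45 and 9.45. Musk was lower in the dystrophic libraries, at 35.01, 15.5, 24.6 and 8.42 CPM. In mdx over B10, 3 of 8 members were higher and 1, Musk at -1.17, lower, where 10.6% of genes were higher and 14.3% lower. The higher 3, Chrnd, Chrng and Dok7, had 1 UMI each in B10. Their log2 intervals ran from -0.47 to 7.43, 0.02 to 7.89 and -0.93 to 7.01, so those of Chrnd and Dok7 included 0. In D2-mdx over DBA, 3 of 8 were higher and Musk, at -1.55, lower, where 9.88% of genes were higher and 17.8% lower. In DBA, Chrng had 3 UMIs and Dok7 had 1. The healthy sums hold few cells. Chrnd, with 0 UMIs in DBA, was 3.13-fold higher in D2-mdx when a floor of 3 UMIs was put in place of that 0. The lower end of its log2 interval was 1.32.

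DMD-enriched-like cells, marked by matrix genes such as Postn and Col1a1, numbered 50, 941, 49 and 587. Chrng stood at 1.83, 13.8, 1.47 and 9.53 CPM in them, on 1, 168, 1 and 68 UMIs. Dok7 stood at 0, 0.656, 0 and 2.66 CPM, on 0, 8, 0 and 19 UMIs. Against MuSC-like cells of the same library, Chrng gave log2 ratios of 3.26 in mdx and 2.75 in D2-mdx and Chrnd 2.09 and 1.77, whereas Dok7 gave -0.18 (-1.62 to 1.15) and 0.86 (-0.07 to 1.76). The embryonic γ and the δ subunit were thus high in this state without the Dok7 level of differentiating cells. Of the 9 Chrne UMIs of mdx myogenic cells, 5 lay here and 3 in MuSC-like cells, too few to place the gene in a state.

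Immunomyoblast-like cells, set by interferon-response genes, numbered 114, 82, 11 and 29. Chrna1 stood at 78.0 CPM in B10 cells of this state, 106 in mdx, 16.9 (2 UMIs) in DBA and 144 in D2-mdx, and Rapsn at 112, 130, 143 and 140. Chrng had 0, 3, 0 and 0 UMIs and Dok7 0, 2, 0 and 0. The 3 Chrng UMIs of mdx gave 4.34 CPM, against 1.44 in MuSC-like cells, and the interval of that log2 ratio ran from -0.76 to 3.28. Counts this low do not place the embryonic subunit or Dok7 above or below MuSC-like cells.

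Pericyte-like cells held little Chrna1, Rapsn and Dok7. In these cells, which numbered 97, 610, 483 and 978, Chrna1 stood at 2.84, 2.98, 3.20 and 7.34 CPM, Rapsn at 3.79, 2.38, 5.15 and 4.72 and Dok7 at 0, 0.199, 0.178 and 0.656. D2-mdx was the highest library for Chrna1 in pericyte-like as in MuSC-like cells. Pericyte-like cells also held Myog at 0.947, 3.57, 0.533 and 8.26 CPM and Pax7 at 47.3, 9.53, 25.6 and 14.7. The part of such myogenic RNA in their Chrna1 levels was not tested. In endothelial-like cells of mdx, Chrnb1 stood at 21.0 CPM on 46 UMIs and Chrna1 at 1.37 on 3 UMIs.

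Other genes of the junction, taken from lists chosen with earlier results of these data known, were counted in the same way over myogenic cells. Of 13 genes that act downstream of MuSK, 1 was higher and 0 lower in each disease comparison, with medians of -0.20 and -0.25. It was Pak1, a kinase of the actin cytoskeleton, at 66.8 CPM in mdx against 15.3 in B10 and 78.4 in D2-mdx against 17.8 in DBA. Macf1, a linker of microtubules that binds rapsyn, was at 111, 117, 107 and 115 CPM in mdx, B10, D2-mdx and DBA, a change short of 2-fold. Ptpn11, Apc, Crk and Fyn, which reached 100 CPM in at least 1 class, also stayed within 2-fold, at log2 ratios between -0.64 and 0.06.

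Of 11 genes of the synaptic cleft, 2 were higher and 2 lower in mdx over B10, and 3 higher and 1 lower in D2-mdx over DBA, with medians of -0.18 and -0.17. Col13a1, a transmembrane collagen of the junction, stood at 3.74 CPM in mdx and 0.351 in B10 (log2 ratio 3.41), and at 3.95 in D2-mdx and 0.465 in DBA (3.09). Lama4, a synaptic laminin chain, was also higher in both, at 1.71 against 0.602 CPM and 3.75 against 0.764. Bche, which encodes butyrylcholinesterase, was lower in both, at 5.72 against 12.1 CPM and 5.84 against 17.8. The remaining calls, Ache lower in mdx and Colq higher in D2-mdx, were each made on one background and the difference between backgrounds was not tested. Dag1, Ncam1, Hspg2, Lamb2 and Nid2 stayed within 2-fold on both backgrounds, at log2 ratios between -0.61 and 0.58.

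Of 8 neuregulin and Ets genes 7 passed the minimum, and 3 were higher and 0 lower in each comparison, with medians of -0.12 and 0.28. They were Nrg1 (0.520 CPM in mdx against 0 in B10, and 2.12 in D2-mdx against 0.0332 in DBA), its receptor Erbb3 (1.19 against 0.526 and 2.26 against 0.399) and the Ets factor Etv4 (1.36 against 0.677 and 8.87 against 0.863). In MuSC-like cells alone, Erbb3 was counted on neither background, Etv4 only in D2-mdx over DBA, and Nrg1 was under the minimum. The glial marker Sox10 stood at 0.241, 0.941, 0.288 and 1.36 CPM in MuSC-like cells and at 6.20 in D2-mdx cycling cells. The part of glial RNA in the Erbb3 and Lama4 levels was not tested. Of 9 genes known to respond to denervation 7 passed, with 3 higher and 2 lower in mdx and 2 higher and 1 lower in D2-mdx, and medians of 0.49 and 0.35. Myog, at 5.08 and 3.88, was among them but also served to name a state. Trim63, the muscle ubiquitin ligase MuRF1, was higher in both at under 1 CPM, and Hdac4, a repressor induced by denervation in fibres, was lower in both, at 37.7 against 79.4 CPM and 30.4 against 85.0. Gadd45a and Runx1 stayed within 2-fold, at log2 ratios between 0.35 and 0.84. Of 11 other nicotinic subunits, 3 passed the minimum in mdx over B10, with 1 higher and 0 lower. In D2-mdx over DBA 2 passed, with 0 higher and 1 lower. The shares of all genes that were higher, given above, were 10.2% and 11.6%, and those lower were 9.60% and 9.96%.

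The same lists were counted in differentiating over MuSC-like cells. Over all genes 9.05% were higher and 19.2% lower in mdx, and 7.05% and 17.5% in D2-mdx. Of the MuSK signalling genes 0 of 13 were counted in mdx and 1 of 13, Macf1, was higher in D2-mdx, at 211 against 97.3 CPM. Of the synaptic cleft genes 3 of 10 were higher and 3 lower in mdx, and 3 of 11 higher and 4 lower in D2-mdx. Ache, which encodes acetylcholinesterase, and Col13a1 were higher in both, and Lamb2, Nid2 and the adhesion gene Ncam1 were lower in both. Of the neuregulin and Ets genes 1 of 6 was higher in mdx and 2 of 6 in D2-mdx, Erbb3 in both, and 0 were lower. Of the denervation genes 1 of 6, Myog, was higher in each library, while Gadd45a was lower in both at log2 ratios of -1.76 and -2.17. Of these 6 genes, 3 were lower in mdx and 1 in D2-mdx. Myog also served to name the state, and Hdac9, Dach2 and Trim63 were under the minimum in both libraries.

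Agrn was the member that differed most between glial-like and MuSC-like cells in each library. The glial-like cells, marked by Sox10, Gpr37l1, Ngfr and Scn7a, made up 0.502% of B10, 5.66% of mdx, 0.945% of DBA and 4.01% of D2-mdx cells, although the sort was for satellite cells. The glial marker list summed to between 2714 and 4113 CPM in them and to at most 28.3 CPM in MuSC-like cells. Agrn stood at 86.8 CPM in B10 glial-like cells against 103 in mdx, and at 76.0 in DBA against 140 in D2-mdx, on 18, 279, 31 and 262 UMIs. In every library glial-like cells were far above MuSC-like cells, where Agrn was at 8.32, 7.67, 7.91 and 7.84 CPM. The log2 ratios were 3.38 (2.61 to 4.07) for B10 and 3.74 (3.45 to 4.04) for mdx, and 3.26 (2.67 to 3.81) for DBA and 4.16 (3.86 to 4.46) for D2-mdx. Over all members, 2 of 9 (Agrn and Dok7) were higher and 5 lower in mdx, where 17.0% of genes were higher and 10.3% lower. In D2-mdx 3 of 9 (Agrn, Dok7 and Lrp4) were higher and 5 lower, where 16.4% were higher and 9.75% lower. Lrp4 had 5 UMIs in D2-mdx glial-like cells, at a log2 ratio of 1.23 (-0.54 to 2.67), and in mdx it gave 0.60 and was not counted. Dok7 had 0, 9, 0 and 6 UMIs in glial-like cells, or 3.31 CPM in mdx and 3.21 in D2-mdx, with log2 ratios to MuSC-like cells of 2.16 (0.78 to 3.44) and 1.13 (-0.44 to 2.43). Myog stood at 14.7 and 27.3 CPM in the same glial-like cells.

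Schwann-like cells, marked by myelin genes such as Mbp and Prx, held less. Agrn had 0, 12, 5 and 7 UMIs in them, or 0, 28.8, 45.2 and 23.1 CPM. Glial-like over Schwann-like cells gave 1.84 (1.01 to 2.81) in mdx and 2.60 (1.54 to 3.93) in D2-mdx, while in DBA the interval of 0.75 ran from -0.63 to 2.47. Summed, glial-like and Schwann-like cells stood above MuSC-like cells by 3.597 (3.31 to 3.89) in mdx and 3.98 (3.68 to 4.28) in D2-mdx. Agrn was not confined to glia, since endothelial-like cells held 82.9, 40.6, 48.2 and 47.2 CPM and pericyte-like cells 27.5, 23.6, 15.1 and 19.1. White blood-like cells were lowest of the non-myogenic classes with Agrn counts, at 1.89, 6.04 and 2.65 CPM in mdx, DBA and D2-mdx.

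By share of thinned cells, Agrn was found in 14.3% of B10, 24.6% of mdx, 12.9% of DBA and 33.3% of D2-mdx glial-like cells (39.1%, 48.7%, 58.1% and 59.7% unthinned). In MuSC-like cells the thinned share was 2.62%, 2.56%, 2.67% and 2.28%. In white blood-like cells the thinned share was 0% in mdx and DBA and 1.27% in D2-mdx. Median depths there were 8215, 11748 and 10330 UMIs against 6748, 12917 and 6991 in glial-like cells. Between strains, glial Agrn differed by 0.24 (-0.44 to 1.02) for mdx over B10, 0.89 (0.34 to 1.47) for D2-mdx over DBA and 0.45 (0.20 to 0.70) for D2-mdx over mdx, none reaching 2-fold.

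**Figure D5:**
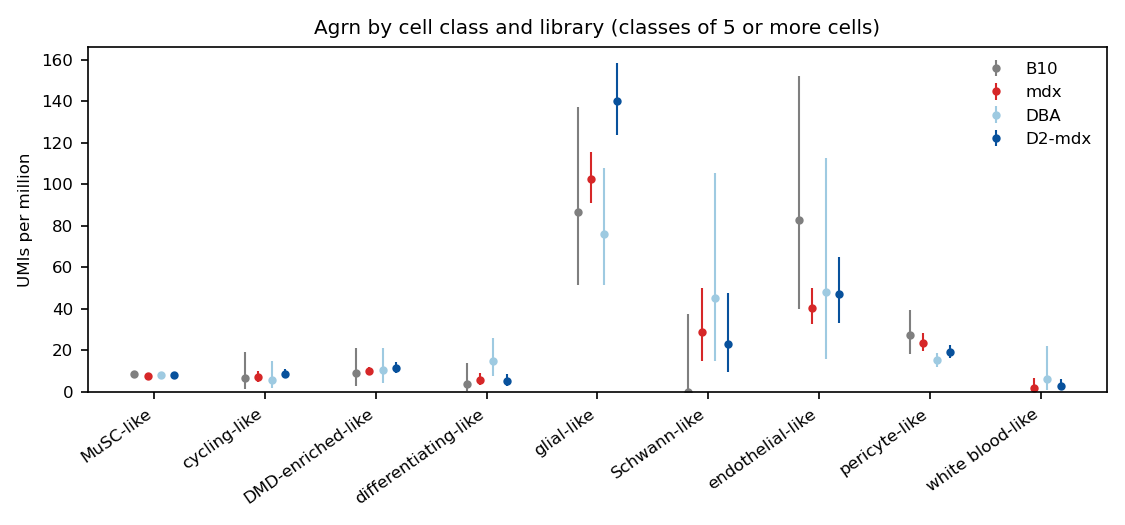
Agrn in selected cell classes, by library, as CPM with exact 95% counting intervals, where a class held at least 5 cells. Immunomyoblast-like, vascular smooth muscle-like and fibroblast or tenocyte-like cells are not drawn. Of the classes shown, glial-like cells were highest in mdx (103 CPM) and D2-mdx (140) and endothelial-like cells followed. MuSC-like cells stayed between 7.67 and 8.32.

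Other synapse genes were also at hand in glial-like cells. Erbb3, the neuregulin receptor of Schwann cells and their precursors, stood at 243 CPM in mdx and 202 in D2-mdx against 0.446 and 0.762 in MuSC-like cells. Bche stood at 559 and 403 CPM against 5.30 and 6.26, and Lama4 at 260 and 209 against 2.03 and 3.21. These 3 are examples from the lists, which were counted over glial-like and Schwann-like cells together. Of the synaptic cleft genes that passed the minimum, 3 of 10 were higher (Bche, Lama4 and Nid2) and 1 lower (Col13a1) in mdx, and 6 of 10 were higher, Col13a1 among them, and 0 lower in D2-mdx. Of the neuregulin and Ets genes 3 of 6 were higher in mdx (Erbb2, Erbb3 and Etv5) and 1 of 6, Erbb3, in D2-mdx, and 0 were lower. Of the MuSK signalling genes Src and Fyn were higher and Pak1 lower in both. Over all genes 18.2% were higher and 10.3% lower in mdx, and 16.9% and 9.42% in D2-mdx.

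Of the receptor subunits, Chrna1 and Chrnb1 were lower in glial-like than in MuSC-like cells of each library. For Chrna1 in B10 the log2 ratio was -0.54 (-1.38 to 0.18). The other subunits rested on few UMIs in glial-like cells, with Chrnd at 0, 2, 0 and 1 and Chrng at 0, 1, 0 and 3. Chrng in D2-mdx was not lower, at 1.61 CPM in glial-like against 1.42 in MuSC-like cells. Chrna1 stood at 72.3 CPM in B10 and 25.8 in mdx, with 46.6 in DBA and 39.6 in D2-mdx, below MuSC-like cells in each, and Chrnb1 at 48.2, 18.04, 56.4 and 28.9. Rapsn stood at 28.9, 25.4, 44.1 and 29.98 CPM and Musk at 19.3, 11.0, 41.7 and 6.42. Pax7 in the same cells stood at 395, 94.6, 311 and 117 CPM, against 917, 549, 720 and 613 in MuSC-like cells, and 0 of the 7 MuSC markers were at 0. In B10 glial-like cells the members rested on few UMIs, 15 for Chrna1 and 4 for Musk, too few to order the libraries by. The MuSC marker list summed to 2835, 1500, 2379 and 1284 CPM in glial-like cells, and its part in these levels was not tested. Of the 5 members that passed the minimum, 2 were lower in mdx over B10 (Chrna1 at -1.49 and Chrnb1 at -1.42, where 10.5% of genes were lower) and 1 in D2-mdx over DBA (Musk at -2.70, where 7.10% were lower), with 0 higher beside 11.2% and 8.02%.

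To see which genes share the pattern of a subunit, levels were correlated over 37 sums of a library and a class, as log2 of CPM plus 1. The sums share libraries and differ in depth, so the correlations are descriptions. Among 12853 genes the highest Pearson r with Chrna1 were those of Ppp1r14b (0.974), Vgll2 (0.950), Serinc2 (0.948), Jsrp1 (0.948) and Akr1b3 (0.946). With Chrng they were Chrnd (0.873), A930003A15Rik (0.856), Eif3i (0.855), R3hdml (0.848) and Snrpe (0.846). The gene nearest to the γ subunit was therefore the δ subunit, while none of the 10 was among the 5 nearest to Chrna1.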

How the data were processed

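Single-cell transcripts were measured in 4 libraries, 1 per strain. The authors deposited raw counts, UMIs per gene and barcode, made with Cell Ranger 3.0.1 on mm10 and filtered to barcodes only, with no further normalization. As in the study's methods, cells were kept if they held 1000 to 5000 genes and no more than 8% of their UMIs were mitochondrial. Doublets were scored with scanpy 1.11.5 (Scrublet) and the top scoring 2.70% to 5.34% of cells of a library were removed at a rate of 0.008 per 1000 cells. Libraries were integrated and clustered with Seurat 5.3.0 (R 4.3.3, 2000 features, 30 dimensions) at resolution 0.1, and the myogenic cells again at 0.4. The planned second resolution was 0.2, and 0.4 was taken after the data were seen, because 1 cluster at 0.2 held differentiating and DMD-enriched markers together. Junction genes outside the marker lists were left out of the features. A cluster was named by its highest marker score, with at least 3 markers detected. The marker lists hold 1 gene that is not reported here.

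UMIs were summed per library and class and given as CPM, with exact Poisson intervals, and ratios had exact binomial intervals (scipy 1.17.1). The floor of a sum of 0 was 3 counts. Shares of cells used counts thinned to 3000 UMIs. With 1 library per strain there was no test. The named genes were all 10 members, the listed junction genes that changed 2-fold in the same direction on both backgrounds or reached 100 CPM in a class of 50 or more cells, and the 5 genes nearest in pattern to Chrna1 and to Chrng among genes with 200 or more UMIs. The members and lists were chosen with earlier results of these data known. The interval and ratio code was tested on simulated data. Alternatives covered the cell limits, doublets, features, integration, resolution, marker gates in place of clusters, TMM (edgeR 4.0.16) and DESeq2 1.42.0 size factors, the UMI minimum, the fold and the thinning depth. Gene positions are those of GENCODE M21 on mm10, and promoter letters those of RefSeq.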

Additional observations from a re-analysis of the deposited data

Results flagged for a closer look

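Chrna1 in MuSC-like cells moved in opposite directions on the 2 backgrounds. Its log2 ratio was -0.18 for mdx over B10 and 0.72 for D2-mdx over DBA, with intervals on either side of 0. With 1 library per strain the difference between backgrounds was not tested, and strain, age and library cannot be told apart.

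Cells above the limit of 5000 genes were in none of the comparisons, and they numbered 41 in B10 against 213 in mdx, and 128 in DBA against 498 in D2-mdx. They carried a signal above the healthy library of the same background for 3 genes. In mdx cells of this kind Chrnd stood at 22.2 CPM against 4.50 in B10, Chrng at 26.4 against 0 and Dok7 at 17.3 against 0. In D2-mdx they stood at 15.9 CPM (Chrnd), 19.0 (Chrng) and 13.2 (Dok7), against 3.79, 0.843 and 3.58 in DBA. Their median depths were 25748, 33518, 28514 and 42288 UMIs, and doublets were not removed among them. Added to the myogenic cells, after the data were seen, they left the members counted as higher at 3 in mdx over B10 and 4 in D2-mdx over DBA.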

How the results depend on the processing

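Of the 118 recomputed values that answer a comparison, 106 kept their reading. A count could differ by a small factor and still keep its reading, while a ratio or share had to stay within the reported interval. Of the recomputed log2 ratios of single members, 434 kept their reading, 74 moved and 5 turned direction. Over myogenic cells the count stayed at 3 or 4 members in mdx over B10 and in D2-mdx over DBA under every alternative run, with Chrnd, Chrng and Dok7 among them each time. In MuSC-like cells the counts of 3 went to 0 on both backgrounds without integration and with a minimum of 100 UMIs, and to 0 in mdx over B10 when the lower bound of the interval had to pass 2-fold. Without integration 113 D2-mdx cells and 2596 DBA cells were MuSC-like, and there the log2 ratios of D2-mdx over DBA turned direction for Chrna1 (-0.075), Musk (0.069) and Rapsn (-0.24). Rapsn also turned to -0.023 in D2-mdx over DBA with marker gates, and to 0.023 for differentiating over MuSC-like cells of mdx at resolution 0.2. The share of differentiating cells with the 4 subunits of the embryonic receptor was 0% in mdx when thinned to 2000 UMIs, and 5.78% in mdx and 5.39% in D2-mdx without thinning. Agrn in glial-like and Schwann-like over MuSC-like cells of mdx was 4.11 without integration, 3.27 with TMM and 3.29 with DESeq2 size factors, and 3.68 in D2-mdx with TMM, against 3.597 and 3.98. Apart from the values for which fewer cells or UMIs entered by construction, the cause was not tested. No paired analysis was possible because each strain has 1 library and the labels give no replicate numbers. Depth limits Chrne, and Chrnd, Chrng and Dok7 outside the dystrophic libraries, and no value here carries the spread between animals.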
